A study of Mus musculus with 24 samples.

Results

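Short skipped exons are cassette exons of at most 60 bases, which a transcript either holds or leaves out. They were taken as every skipped exon event in the deposited splicing tables whose middle exon was no longer than 60 bases. This gave 534 events, on 510 distinct exons of 434 genes, out of 4636 skipped exon events and 8935 splicing events of all kinds. Below, each skipped exon event is called an exon, so an exon in several events is counted several times. The RNA came from brains of mice at postnatal day 9, from a block of tissue behind the thalamus with the cortex taken off. KO mice lacked Celf6, which encodes a CELF protein that binds RNA, and WT mice carried it. Each brain gave total RNA, called input, and RNA from ribosomes of serotonin neurons, purified by translating ribosome affinity purification (TRAP) through a serotonin-cell TRAP allele that KO and WT animals shared. The promoter of that allele, the strain and the part of Celf6 that was deleted are not given in the sources used here. The groups were KO TRAP (n = 5), WT TRAP (n = 5), KO input (n = 5) and WT input (n = 3). The measure was the percent spliced in (PSI), the fraction of a gene's transcripts across the event that hold the middle exon, from 0 (always left out) to 1 (always kept).

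Exons this short leave little room for the proteins that normally recognise an exon from within, so their use depends on the splice sites and on factors bound to the introns beside them. The shortest, called microexons, are known from neurons, where the splicing factor Srrm4 favours their inclusion and Ptbp1 opposes it. When an exon's length is a multiple of 3 bases, its inclusion adds a few amino acids and keeps the reading frame, unless the exon holds a stop codon. Other lengths shift the frame and often end translation early.

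For 4 of the 534 exons the mm10 position lay, with 20 bases on each side, inside a promoter window of the RefSeq table (GRCm38.p6), so the bases at both splice sites could be read. In all 4 the intron ended in ag before the exon and began with gt after it. The lines below show 3 of them, each over 30 bases with the exon in capitals and the intron in lower case, because they show what a short exon and its intron borders look like. Hnrnpk and Hnrnpd encode heterogeneous nuclear ribonucleoproteins, which bind RNA in the nucleus, and Hpca encodes the neuronal calcium sensor hippocalcin.
Hnrnpk 54-base exon, start, chr13:58402108-58402137, minus strand: tgtcctcgttctctgtctagCAGTGACCGA
Hnrnpk 54-base exon, end, chr13:58402044-58402073, minus strand: GACTCGCGCGgtgagcgggacgggcgggtc
Hnrnpd 57-base exon, start, chr5:99976581-99976610, minus strand: accggttgttaattccctagCCATTCAAAC
Hnrnpd 57-base exon, end, chr5:99976514-99976543, minus strand: GGGAAGAATGgtaaaacttttacattttat
Hpca 51-base exon, start, chr4:129120191-129120220, minus strand: cctccattgcttctgctcagCTTCACACTT
Hpca 51-base exon, end, chr4:129120130-129120159, minus strand: CGGAGAAAAGgtgagtgatgaaggaggtct

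These 3 exons behaved differently. The Hnrnpk exon was mostly left out, with PSI of 0.0426 to 0.114 in the 7 libraries that had a value. The Hpca exon had a value in 3 input libraries, at 0.048, 0.061 and 0.066, and in no TRAP library. The Hnrnpd exon was at 0.109 in KO TRAP 2, 0.971 in KO TRAP 4 and 0.942 in WT input 1, so 2 libraries of 1 group stood at opposite ends of the scale.

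The 19 libraries used held 3390423 to 6861963 gene counts. WT input 2 and WT input 3 differed in their counts by as little as sequencing runs of a single library (a chi-square statistic of 1.36 per gene, where 4 repeat runs gave 1.39 to 2.67 and 35 pairs of different libraries within a group gave 26.2 to 95.3), so they were counted as 1 sample, WT input 2/3. Celf6 itself, in counts scaled to a common library total (CPM), was at 21.4 to 115 in KO TRAP, 85.2 to 188 in WT TRAP, 4.79 to 22.0 in KO input and 15.4 to 104 in WT input. The highest KO value, 115 CPM in KO TRAP 1, lay inside the WT TRAP range, and the lowest WT input value, 15.4 CPM in WT input 2/3, lay inside the KO input range. KO TRAP 1 and WT input 5 also held both Xist and Y-linked RNA (71.2 and 28.8 CPM in the first), whereas each of the other 16 libraries held only 1 of these above 5 CPM. Without these 2 libraries no short exon passed in the comparison of TRAP with input (77 tested), of KO with WT in TRAP (84) or in the genotype difference between TRAP and input (77). Values without them stand beside most results that rest on them. For KO against WT in input, each library was left out in turn, WT input 5 among them, and no short exon passed. Libraries of a group came from separate brains by the series text, and p-values measure the spread between them.

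The shorter the exon, the more often it kept the reading frame. Of the 27 exons of 3 to 15 bases, 25 (92.6%) had a length divisible by 3. The share was 72.6% (45 of 62) at 16 to 27 bases, 56.1% (60 of 107) at 28 to 40 bases, 53.0% (179 of 338) at 41 to 60 bases and 45.6% (1869 of 4102) among skipped exons above 60 bases. The only frame-shifting exons up to 15 bases were the 8-base exon of Pitpna, a phosphatidylinositol transfer protein, and the 13-base exon of Arl6, a small GTPase of cilia. The intron before the exon had a median length of 3153 bases for exons up to 15 bases and 1790.5 bases for all short exons, while the intron after it was 1625 and 1635.5 bases. These are counts over events, some of which share an exon or a gene, and no test was made of them.

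**Figure D1:**
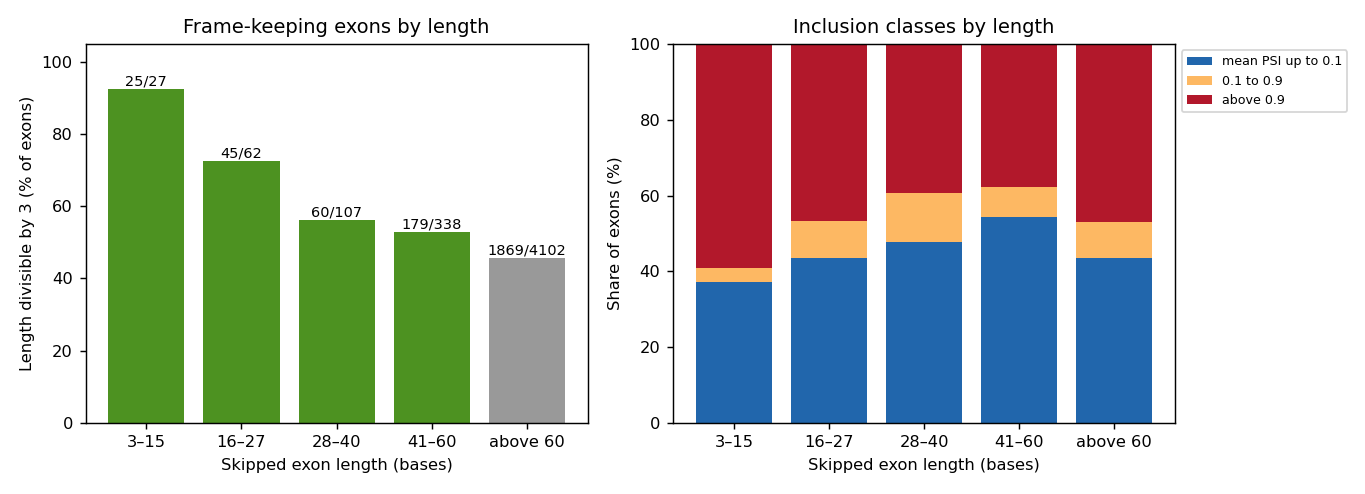
Left, share of skipped exons with a length divisible by 3 (%) by exon length in bases, with the number of such exons over all exons of that class. Each event is counted as an exon. Right, share of the same exons (%) by mean PSI over all libraries with a value. The frame-keeping share falls from 92.6% in the shortest class to 45.6% above 60 bases, and in each class most exons lie at mean PSI up to 0.1 or above 0.9.

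Most short exons were close to always used or never used. Mean PSI was at most 0.1 in 272 (50.9%), between 0.1 and 0.9 in 47 (8.80%) and above 0.9 in 215 (40.3%), against 43.5%, 9.63% and 46.9% of longer skipped exons. The authors had kept only values with a credible interval no wider than 0.2. Such a rule keeps values near 0 or 1 from fewer reads than values in between, and the read depth behind each PSI is unknown, so these shares describe values that passed and not all transcripts. Exons at intermediate PSI up to 27 bases numbered 7 of 89.

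Exons listed in the gene models and exons not listed there lay at opposite ends of the scale. The gene models of the deposited counts listed 295 of the 534 middle exons, and 186 of these (63.1%) had mean PSI above 0.9. Of the 239 exons that the models did not list, 192 (80.3%) had mean PSI of at most 0.1. Among listed exons the reading frame was kept by 25 of 29 (86.2%) at intermediate PSI, by 58 of 80 (72.5%) at low PSI and by 94 of 186 (50.5%) at high PSI. Among unlisted exons the order was another, with 7 of 18 (38.9%) at intermediate, 106 of 192 (55.2%) at low and 19 of 29 (65.5%) at high PSI. In longer listed exons the same 3 shares were 59.4% (155 of 261), 53.6% (269 of 502) and 45.6% (748 of 1640). Genes flagged in the deposited tables as bound by CELF6 in crosslinking experiments (CLIP) hosted 155 of the 534 short exons and 958 of the 4102 longer ones (23.4%).

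Few short exons could be followed through the whole study. A value was present in every one of the 18 libraries for 29 exons and in 1 library only for 199. TRAP gave a value for 457 exons and input for 336, with 259 in both. Each library held 94 to 214 values, and the share of them at intermediate PSI ran from 7.34% to 15.9%, with medians of 10% in KO TRAP, 12.4% in WT TRAP, 13.2% in KO input and 13.3% in WT input. The median SD among libraries of a group was 0.0116 at mean PSI up to 0.1, 0.0137 above 0.9 and 0.0528 between. A mean near an end of the scale leaves little room for spread, so these SDs do not rank how well libraries agreed. Of 264 exons with at least 2 values in a group, 12 had libraries of 1 group more than 0.2 apart, which is the widest interval the authors kept. A pair of exons with a value in every library belonged to Rps24, which encodes a protein of the small ribosomal subunit. Its 18-base exon stood at 0.00806 ± 0.0046 in TRAP (SD, n = 10) and 0.00963 ± 0.00349 in input (n = 8), and its 20-base exon at 0.974 ± 0.0174 and 0.956 ± 0.0304.

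Between serotonin-neuron ribosomes and total RNA, no short exon passed the test for a difference in PSI. Of 85 tested, on 82 distinct exons, the mean was nominally higher in TRAP for 41, and the median difference in mean PSI was −0.000841. None passed an adjusted p of 0.05 in limma's moderated test on log2(PSI/(1−PSI)), fitted over all 1787 splicing events with 2 values per group, in which 0.112% of events passed. At an unadjusted p of 0.05 there were 9 of 85 short exons (10.6%), beside 9.4% of all events. A difference in mean PSI of at least 0.05 was found for 5 (5.88%), beside 6.94% of all events. All 5 were among the 12 tested exons of intermediate PSI, and exons near an end of the scale have little room for such a difference. Data were also simulated with these libraries' spread over all 1787 events, without the limits on PSI, with 50 events changed at each size of shift. There the same test found 38% of shifts of 1 log2 unit of odds and 90% of shifts of 2. Many changed events make an adjusted threshold easier to pass, so these shares may be too high for the real data. A p that misses the threshold does not show that the PSI values were equal.

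**Figure D2:**
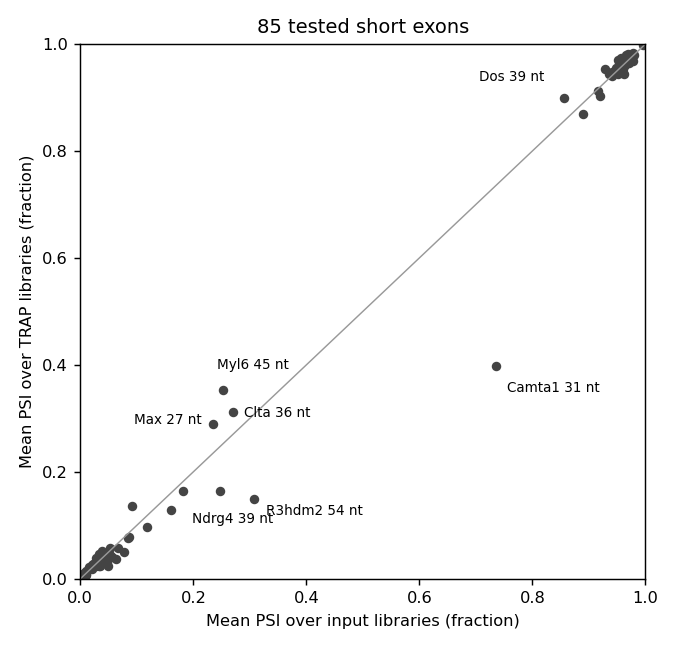
Mean PSI (fraction) over TRAP libraries against mean PSI over input libraries for the 85 tested short exons, each a point, with the line of equality. Most points crowd the corners, and the exon of Camta1 lies farthest from the line, at 0.399 in TRAP and 0.735 in input.

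The 2 kinds of RNA differed strongly in their cell markers. The summed level of 8 serotonin-neuron markers was 4911 to 11654 CPM in TRAP and 141 to 267 CPM in input, and all 8 were higher in TRAP in edgeR's quasi-likelihood test. Oligodendrocyte markers summed to 943 to 4901 CPM in TRAP and 4541 to 11807 CPM in input, with 5 of 9 lower, and astrocyte markers to 201 to 985 and 792 to 1488 CPM, with 3 of 8 lower. Microglia markers summed to 4.14 to 33.5 and 10.6 to 110.2 CPM (0 of 6 called), endothelial and mural markers to 13.8 to 77.2 and 34.96 to 64.9 CPM (0 of 6), glutamatergic markers to 181 to 374 and 348 to 670 CPM (1 of 3 lower), and GABA and glycine neuron markers to 219.7 to 660 and 490 to 1309 CPM (2 of 4 lower). Of all genes 2.41% were higher and 2.31% lower in TRAP. With the brain as a block 1 of the 8 astrocyte markers and 0 of the 4 GABA and glycine neuron markers were lower, and without KO TRAP 1 and WT input 5 the latter count was also 0. In that block TRAP and input of WT number 5 did not match in their sex-linked RNA. No marker of any list was at 0 in all TRAP libraries, and the part of these markers in the PSI differences was not tested.

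The exons below were picked after their values were seen, since none passed the test. Myl6, an essential light chain of non-muscle and smooth muscle myosin, had the smallest p. Its 45-base exon (chr10:128491720-128491764, mm10, minus strand, 15 codons) is not listed in the gene models. PSI was 0.315, 0.417, 0.403, 0.333 and 0.449 in KO TRAP and 0.352, 0.324, 0.324, 0.278 and 0.328 in WT TRAP. It was 0.200, 0.266, 0.287, 0.224 and 0.262 in KO input and 0.244, 0.256 and 0.280 in WT input. Nearly every TRAP library was thus above every input library, and the exception was WT TRAP 4 at 0.278, inside the input range. The difference was 0.67 ± 0.14 log2 units of odds (SE), or 0.0983 in PSI, with an adjusted p of 0.0975 in limma. It was 0.73 among libraries of sequencing run 1 and 0.62 in run 2. Without KO TRAP 1 the adjusted p was 0.0319, without both KO TRAP 1 and WT input 5 it was 0.0532, and over all alternatives it ran from 0.0206 to 0.636. The level of the gene itself, 18.2 CPM in TRAP, leaves out reads that match several places in the genome. Whether this lowered the count of Myl6 was not tested.

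Camta1, a calmodulin-binding transcription activator, showed the widest gap. Its listed 31-base exon (chr4:151071426-151071456, mm10, minus strand) shifts the frame. PSI was 0.227, 0.394, 0.472, 0.490 and 0.501 in KO TRAP and 0.713, 0.221 and 0.171 in WT TRAP 1, 2 and 3. In input it was 0.792, 0.732, 0.838 and 0.739 in KO and 0.643 and 0.669 in WT. Only WT TRAP 1 reached the input range. The difference was −2.10 ± 0.55 log2 units of odds (SE), or −0.323 in PSI, with an adjusted p of 0.202 in limma. Without WT TRAP 1 it was −2.66 with an adjusted p of 0.00728, so whether it passed was decided by 1 library. Without KO TRAP 1 and WT input 5 it was −1.94 with an adjusted p of 0.227. The runs gave −2.41 and −1.53.

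In Cyb5, which encodes cytochrome b5, an unlisted 19-base exon was rare in both kinds of RNA and nominally rarer in TRAP. PSI ran from 0.0137 to 0.0407 over 9 TRAP libraries (median 0.0228) and from 0.0409 to 0.0678 over 6 input libraries (median 0.0438). This was the only one of the 85 short exons whose TRAP and input libraries did not overlap (1.18%, beside 0.56% of all events). The difference was −1.18 ± 0.24 log2 units of odds (SE), which is −0.0254 in PSI, with an adjusted p of 0.0975 in limma, 0.0469 without WT TRAP 1 and 0.176 without KO TRAP 1 and WT input 5.

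A pair of further exons of intermediate PSI leaned to input. The 39-base exon of Ndrg4, a brain protein of the NDRG family, had PSI of 0.0805 to 0.314 in TRAP (median 0.164, n = 10) and 0.166 to 0.369 in input (median 0.217, n = 8), with an adjusted p of 0.385 in limma. The 54-base exon of R3hdm2, an R3H-domain protein, had PSI of 0.096 to 0.358 in TRAP (median 0.111, n = 8) and 0.0665 to 0.450 in input (median 0.332, n = 6), with an adjusted p of 0.441. Both overlapped between TRAP and input. In R3hdm2 the 4 KO TRAP libraries lay close together, at 0.101 to 0.125, while KO input 5 at 0.0665 stood below 5 other input libraries at 0.325 and higher.

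Some exons varied widely among libraries of 1 group. The 27-base exon of Max, the partner of MYC, adds 9 residues near the amino terminus. It was at 0.693, 0.040, 0.308 and 0.389 in KO TRAP and at 0.105 to 0.330 in the 5 WT TRAP libraries. The 39-base exon of the kinase gene Gsk3b adds 13 residues inside the kinase domain and is known to be favoured in neurons. It was at 0.536, 0.716, 0.184, 0.187 and 0.356 in KO TRAP, at 0.292 and 0.206 in WT TRAP, and at 0.226, 0.432 and 0.159 in WT input. In KO TRAP for both exons, in WT TRAP for Max and in WT input for Gsk3b, the libraries lay further apart than the 0.2 limit on the interval of a single value. For the next 3 intermediate exons no group held libraries more than 0.2 apart. The 27-base exon of Nnat, the developmental brain gene neuronatin, in the event with the longer intron before it, was at 0.164 ± 0.0313 in TRAP (SD, n = 10) and 0.181 ± 0.0174 in input (n = 8). The 45-base exon of Tecr, an enzyme of very-long-chain fatty acid synthesis, was at 0.128 ± 0.0426 in the 10 TRAP libraries and 0.16 ± 0.041 in the 8 input libraries. The 57-base exon of Rtn3, a reticulon of the endoplasmic reticulum, was at 0.0976 ± 0.0475 (n = 9) and 0.118 ± 0.0494 (n = 8).

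**Figure D3:**
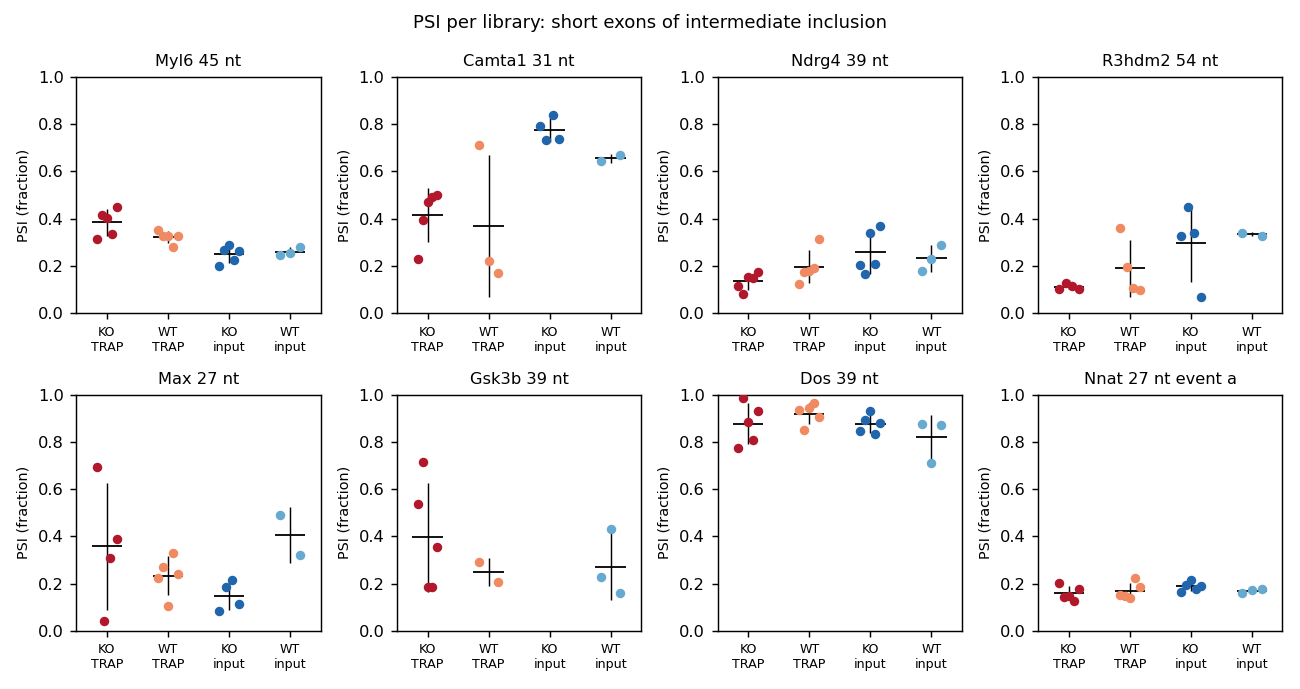
PSI (fraction) of 8 short exons of intermediate inclusion in each library with a value, by group. Points are libraries, horizontal lines group means and vertical lines SD. The exon of Myl6 is at 0.200 to 0.287 in input and 0.278 to 0.449 in TRAP, while Max and Gsk3b spread from 0.040 to 0.693 and 0.184 to 0.716 among KO TRAP libraries.

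Some exons could be read in 1 kind of RNA only. The clearest was a 59-base exon of Slc6a4, the serotonin transporter (chr11:77001607-77001665, mm10, plus strand, not listed in the gene models). It had a value in each of the 10 TRAP libraries and in no input library. PSI was 0.00355 to 0.0152 in KO TRAP and 0.00425 to 0.0161 in WT TRAP, so the transporter's transcripts almost always left it out in both genotypes. The gene was counted at 2959 CPM in TRAP and 73.8 in input. Ylpm1, a nuclear protein gene at 1760 CPM in TRAP and 136 in input, had a 52-base exon at 0.921 to 0.966 in 5 TRAP libraries. The 20-base exon of Cacnb3, a calcium channel beta subunit, was at 0.926 to 0.957 in 6. In the other direction a 37-base exon of the endocytic GTPase gene Dnm1 had values in 6 input libraries, from 0.042 to 0.182, and in no TRAP library. Dnm1 itself was lower in TRAP (517 against 822 CPM, adjusted p 0.0372 in edgeR, or 0.152 with the brain as a block). In all, 198 short exons had values in TRAP alone and 77 in input alone, mostly in a single library (136 and 63). Input had fewer libraries than TRAP. Of the 4102 longer skipped exons, 3455 had a value in TRAP, 2836 in input and 2189 in both.

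Genes of membrane traffic gave 25 short exons in 15 genes, and 20 kept the frame. The clathrin light chains Clta and Cltb carry neuronal exons that insert residues near the site where the heavy chain binds. In Clta the 54-base exon (chr4:44030215-44030268, mm10, plus strand, 18 residues) was almost always kept when the next exon in the pair was too, at 0.956 ± 0.0211 in TRAP (SD, n = 9) and 0.949 ± 0.0205 in input (n = 4). It was at 0.857 ± 0.0625 (n = 5) and 0.818 ± 0.0578 (n = 2) in transcripts without the 36-base exon. That 36-base exon (chr4:44031400-44031435, 12 residues) was used less, at 0.312 ± 0.104 in TRAP (n = 9) and 0.27 ± 0.0468 in input (n = 6) after the 54-base exon, and at 0.251 ± 0.0745 (n = 4) and 0.228 ± 0.0325 (n = 3) without it. The 54-base exon of Cltb was at 0.876 ± 0.0611 in TRAP (n = 7) and 0.945 in KO input 1. The 36-base Clta exon was the only member of the group tested between TRAP and input, with a difference of 0.26 ± 0.22 log2 units of odds (SE) and an adjusted p of 0.75 in limma.

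The counts of the other groups stand beside all short exons, of which 50.9% had mean PSI up to 0.1 and 40.3% above 0.9. No test was made between groups, and some genes gave several exons. A value in 1 library only was all that 9 of 14 adhesion and guidance exons and 11 of 20 kinase, phosphatase and scaffold exons had. Cytoskeleton and small GTPase genes gave 21 exons, 17 of them frame-keeping, and 15 had mean PSI up to 0.1. Among these were the 36-base and 51-base exons of Dync1i2, a dynein intermediate chain, at a mean of 0.0312 (n = 9) and 0.0256 (n = 10) in TRAP. Adhesion and guidance genes gave 14, with 10 up to 0.1. Kinase, phosphatase and scaffold genes gave 20, of which 7 were up to 0.1 and 11 above 0.9, such as the 30-base exon of the calcineurin subunit gene Ppp3cb at 0.94 ± 0.0113 in TRAP (SD, n = 5) and 0.959 ± 0.0257 in input (n = 5). RNA-binding genes gave 21 exons, of which 10 kept the frame (47.6%), with 10 up to 0.1 and 8 above 0.9. Frame-shifting exons in this group included a 16-base exon of Srrm4 itself, at 0.020 in 1 library, a 47-base exon of the neuronal RNA-binding gene Elavl4 at 0.0362 ± 0.0127 in 8 TRAP libraries, and 40-base exons of Rbfox2 (0.925 in 1 library) and Rbfox3 (0.937 and 0.971 in 2). Channel and receptor genes gave 4 and transcription and chromatin genes 5. None of the 12 tests between TRAP and input in the traffic, cytoskeleton, kinase and RNA-binding groups (1, 6, 2 and 3) passed an adjusted p of 0.05.

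Genes known for neuronal microexons gave 33 events in 20 of the 76 listed genes, and 29 kept the frame (87.9%). Mean PSI was above 0.9 in 13, up to 0.1 in 15 and intermediate in 5. High values were found for the 12-base exon of Dnm1 (0.933 to 0.971 in 8 input libraries), the 9-base exon of the adaptor gene Ap1s2 (0.937 to 0.960 in 4 libraries) and the 12-base exon of the receptor phosphatase gene Ptprs (0.924 to 0.943 in 3). Low values were found for the 3-base exon of the microtubule-binding gene Clasp2 (0.039 to 0.080 in 3 TRAP libraries) and the 6-base exon of the calcium channel gene Cacna1b (0.0425 and 0.0451 for its 2 such exons, both in KO TRAP 4). Between TRAP and input 2 could be tested. These were the 36-base Clta exon above and the 17-base Clasp2 exon, at 0.025 ± 0.00996 in TRAP (SD, n = 9) and 0.0214 ± 0.00816 in input (n = 7), with an adjusted p of 0.776 in limma.

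Of the exons up to 15 bases, 3 could be tested. The 12-base exon of Vps29, a retromer subunit, was at 0.0576 ± 0.0113 in TRAP (SD, n = 8) and 0.052 ± 0.0128 in input (n = 4), with an adjusted p of 0.858 in limma. The 12-base exon of Idh3g, a mitochondrial isocitrate dehydrogenase subunit, was at 0.943 ± 0.02 in KO TRAP and 0.945 ± 0.00468 in WT TRAP (n = 3 each). The 12-base exon of Dnm1 was at 0.947 ± 0.0137 in KO input (n = 5) and 0.961 ± 0.00923 in WT input (n = 3), with an adjusted p of 0.973. Only the exon of Vps29 could enter the test of whether the genotype difference differed between TRAP and input, with −0.0148 in PSI and an adjusted p of 0.987 in limma.

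The loss of Celf6 was compared within TRAP for 94 short exons. In bulk RNA fewer cells of a type and less RNA per cell cannot be told apart between genotypes. None passed an adjusted p of 0.05 in limma, where 0.0537% of 1861 events did, and 4 had an unadjusted p below 0.05 (4.26%, beside 6.02% of all events). Of 94 short exons with a p in the authors' deposited table, 0 were below a false discovery rate of 0.05 (beside 0.0537% of 1861 events) and 6 below an unadjusted 0.05 (beside 5.32%). KO was higher than WT in 38 of the 94, with a median difference of −0.05 log2 units of odds. A difference of at least 0.05 in mean PSI was seen in 5 (5.32%, beside 7.63%). KO and WT libraries did not overlap for 6 short exons (6.38%, beside 3.87%). In data simulated in the same way over all 1861 events, without the limits on PSI, 18% of shifts of 1 log2 unit of odds and 92% of shifts of 3 were found.

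The smallest p belonged to the 36-base exon of Clta next to the 54-base exon. PSI was 0.162, 0.194, 0.279 and 0.250 in KO TRAP and 0.337, 0.323, 0.498, 0.393 and 0.369 in WT TRAP, with every KO value under every WT value. The difference was −1.15 ± 0.29 log2 units of odds (SE), or −0.163 in PSI, with an adjusted p of 0.389 in limma and an exact 2-sided permutation p of 0.00794, the smallest this design can give. The permutation p is not adjusted for picking this exon by its smallest p. The difference is given below under other settings. This difference was −1.25 in run 1, −0.88 in run 2 and −0.98 without KO TRAP 1 (adjusted p 0.619 without that library and WT input 5), and the adjusted p ran from 0.211 to 0.666 over the alternatives. The authors' deposited table gives it a p of 0.00531 and a false discovery rate of 0.541. In input the same exon was at 0.263, 0.299, 0.276 and 0.323 in KO and 0.275 and 0.186 in WT, so KO was not the lower group there. The event of the same exon without the 54-base exon had values of 0.167, 0.222 and 0.341 in KO TRAP and 0.274 in WT TRAP 2, which overlap. The 54-base exon of Clta, read beside the 36-base exon, was at 0.948 ± 0.0259 in KO TRAP (SD, n = 5) and 0.965 ± 0.00783 in WT TRAP (n = 4), with an adjusted p of 0.919. The other tested exons of microexon genes were those of Cltb (54 bases) and Clasp2 (17 bases), with differences of −0.00787 and −0.00744 in PSI and adjusted p of 1 and 0.922.

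The 4 exons with the next smallest p were all near an end of the scale. The 54-base exon of Rufy3, a gene of axon growth, was at 0.0281 ± 0.0119 in KO TRAP and 0.0546 ± 0.0114 in WT TRAP (SD, n = 5 each), with an adjusted p of 0.589 in limma. The 29-base exon of Lsm2, a subunit of the U6 snRNP ring, was at 0.0341 ± 0.00464 and 0.022 ± 0.00454 (n = 4 each). The 32-base exon of the prefoldin gene Pfdn5 was at 0.951 ± 0.0173 and 0.974 ± 0.00274 (n = 4 each). The 60-base exon of Psmd12, a proteasome subunit, was at 0.964 ± 0.00599 and 0.947 ± 0.00839 (n = 3 each), and 3 against 3 cannot go below an exact permutation p of 0.1. The differences in PSI were −0.0265 for Rufy3, 0.0121 for Lsm2, −0.0231 for Pfdn5 and 0.0166 for Psmd12. Without KO TRAP 1 and WT input 5 the adjusted p was 0.619 for Rufy3, 0.751 for Lsm2, 0.848 for Pfdn5 and 0.79 for Psmd12 in limma. The 45-base exon of Myl6 was at 0.383 ± 0.0573 in KO TRAP and 0.321 ± 0.0267 in WT TRAP (n = 5 each), with an adjusted p of 0.838.

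In input 57 short exons were compared by genotype. None passed in limma, where 0.0% of 1154 events did, and 3 had an unadjusted p below 0.05 (5.26%, beside 3.29%). In the authors' deposited comparison, 0 of 76 short exons had a false discovery rate below 0.05 (beside 0.0% of 1504 events) and 5 an unadjusted p below it (beside 4.79%). The 39-base exon of Pcbp2, a poly(C)-binding RNA regulator, had the smallest p. A gap of at least 0.05 in mean PSI was seen in 3 (5.26%, beside 6.85%). PSI of the Pcbp2 exon was 0.869, 0.738, 0.868 and 0.921 in KO input and 0.952, 0.922 and 0.952 in WT input, and the lowest WT value was only just above the highest KO value. The difference was −1.45 ± 0.50 log2 units of odds (SE), or −0.0931 in PSI, with an adjusted p of 0.973 and an exact permutation p of 0.0571, the latter not adjusted for picking this exon. In TRAP, where this exon had too few values for the test, it was at 0.782 and 0.794 in KO and at 0.930, 0.902 and 0.934 in WT. The 48-base exon of Zfp207, a spindle zinc finger protein, was at 0.826 to 0.946 in the 4 KO input libraries (median 0.884) and at 0.976, 0.947 and 0.948 in WT input. In TRAP its KO and WT libraries overlapped (0.826 to 0.981 and 0.844 to 0.963). These were the 2 short exons without overlap in input (3.51%, beside 3.47%). WT input 5, which held both Xist and Y-linked RNA, was at 0.952 for Pcbp2 and 0.948 for Zfp207. Leaving a library out cannot make groups overlap that did not overlap before, so the lack of overlap was not checked in this way. With each library left out in turn, the difference ran from −1.75 to −1.07 log2 units of odds for Pcbp2. For Zfp207 it ran from −1.84 to −1.10. The 45-base exon of the actin gene Actg1, the 37-base exon of the ATP synthase gene Atp5c1 and the 57-base exon of the periphilin gene Pphln1 completed the 5, with differences of −0.00467, 0.0253 and 0.0126 in PSI.

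**Figure D4:**
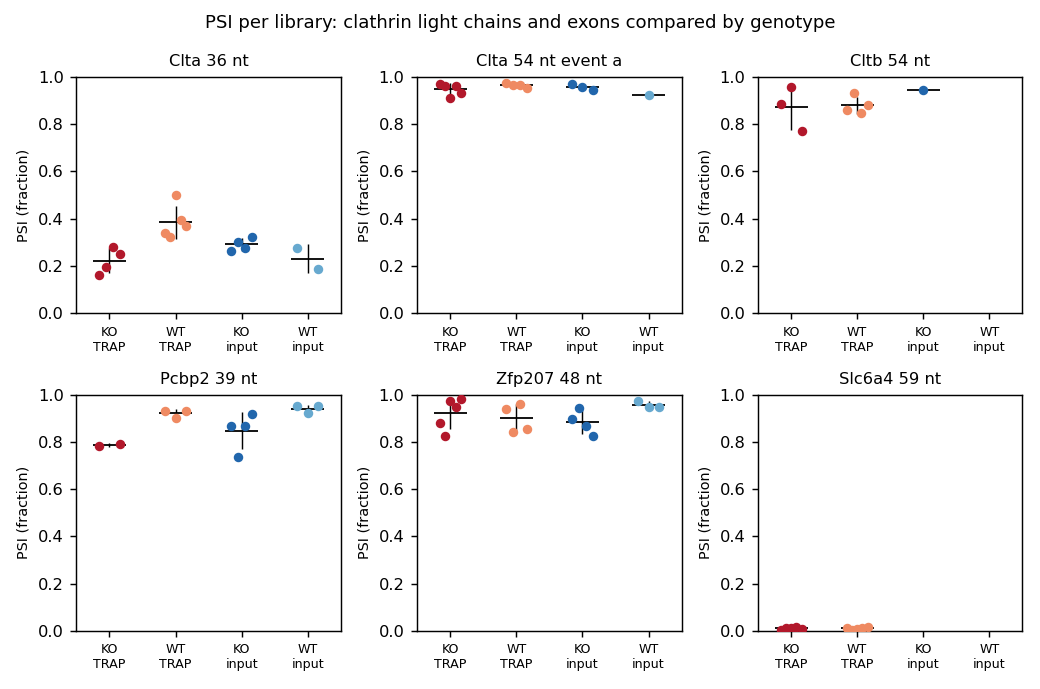
PSI (fraction) of 6 short exons in each library with a value, by group. Points are libraries, horizontal lines group means and vertical lines SD. For the 36-base Clta exon the KO TRAP libraries lie at 0.162 to 0.279 and the WT TRAP libraries at 0.323 to 0.498, and the Slc6a4 exon stays at or under 0.0161 with no input value.

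Whether the genotype difference itself differed between TRAP and input was tested for 85 short exons. None passed in limma, where 0.0% of 1787 events did, and 4 had an unadjusted p below 0.05 (4.71%, beside 4.48%). The 36-base Clta exon again had the smallest p, with −1.63 ± 0.44 log2 units of odds (SE) and an adjusted p of 0.71, or −1.45 and 0.901 without KO TRAP 1 and WT input 5. It was followed by exons of Psmd12, of the kinase gene Camk2d (55 bases), of Rufy3 and of the junction protein gene Pkp4 (48 bases), with adjusted p of 0.953 each. In the simulation over all events this comparison found the fewest shifts, with 52% of shifts of 3 log2 units of odds. Genes flagged as CELF6 CLIP targets hosted 48 of the 94 exons tested in TRAP and 33 of the 57 in input. KO was higher than WT in 22 of the 48 and 20 of the 33, and among exons of other genes in 16 of 46 and 9 of 24. The median difference in TRAP was −0.04 log2 units of odds for the former and −0.05 for the latter, beside −0.04 for all splicing events. In input it was 0.11 and −0.13, beside 0 for all splicing events, and the difference between genes with and without the flag was not tested.

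Of 32 splicing regulators listed, 30 could be tested for their level in TRAP against input, and 6 passed an adjusted p of 0.05 in edgeR's quasi-likelihood test, beside 4.72% of all genes. Celf6 was higher in TRAP (log2 fold change 1.55 ± 0.39, SE), where 2.41% of 14261 genes were higher. The 5 lower ones, beside 2.31% of genes, were the neuronal Elavl3 (−2.04 ± 0.30), Rbfox1 (−1.33 ± 0.27), Celf4 (−1.13 ± 0.21), Celf2 (−0.999 ± 0.24) and Nova1 (−0.99 ± 0.25). With the brain as a block Elavl3 and Rbfox1 passed (log2 fold changes −1.85 and −1.07, adjusted p 0.00191 and 0.0469) and the other 4 did not, and without KO TRAP 1 and WT input 5 Celf2 and Nova1 did not (adjusted p 0.0674 and 0.057). Srrm4, the microexon activator, was at 129 ± 44.4 CPM in TRAP (SD, n = 10) and 123 ± 36.04 in input (n = 8), a log2 fold change of 0.00 ± 0.21 (SE) whose sign flips between alternatives. Ptbp1, its opponent, was at 27.6 ± 11.7 and 44.4 ± 23.9 CPM, and Ptbp2 at 130 ± 43.0 and 110 ± 24.0. Neither passed, with adjusted p of 0.40 and 0.569, nor did Rbfox3, at 205 ± 50.3 and 279 ± 67.7 CPM (adjusted p 0.25).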

How the data were processed

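Skipped exon events of at most 60 bases were taken from the tables of TRAP and input. PSI values are fractions in the tables the authors deposited, estimated by MISO, and values with a credible interval wider than 0.2 were removed, per the series text. The p-value and false discovery rate columns that the authors deposited come from their test on log odds over at least 3 samples, per the series text. Gene counts are whole numbers the authors deposited, from featureCounts 1.4.6-p5 without strand (mm10), per the file headers, after Trimmomatic and STAR, per the submitters' processing notes. RNA was amplified before library preparation, per the labels. The deposited CLIP column flags genes only.

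WT input replicate 4, labelled an outlier (325072 counts), and 4 repeat runs were left out, and PSI of WT input 2 and 3 was averaged. PSI, held to 0.01 to 0.99, was compared on the log2 odds scale with limma 3.58.1 in R 4.3.3 over all splicing events, with Benjamini and Hochberg adjustment. At least 2 values per group (TRAP against input, interaction) or 3 per genotype were required. TRAP against input averages the KO and WT differences. Gene levels used edgeR 4.0.16 (TMM, filterByExpr, sequencing run as covariate), and DESeq2 1.42.0 as an alternative. TRAP and input libraries of 1 number come from 1 brain by the series text, while their residual PSI correlated at −0.00249 to 0.0891, with 3 of 7 closest to their own number. WT TRAP 5 held 0.475 CPM of Xist and 71.2 CPM of Y-linked RNA, whereas WT input 5 held 37.0 and 9.93 CPM. Numbers 1 and 5 were the only WT pairs in fits with the brain as a block. Those fits thus rest on an uncertain pairing.

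Members and lists were chosen with earlier results of these data known. Named exons were the 5 smallest p per genotype comparison, tested exons up to 15 bases and tested exons of microexon genes. Others are named after their values were seen.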

Additional observations from a re-analysis of the deposited data

Results flagged for a closer look

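In 86 sets of 4 or 5 libraries, covering 51 short exons, 1 set held a library far from the rest. This is fewer than the rate of about 1 set in 20 that chance gives. The 54-base exon of Mapt, the microtubule-binding protein tau, was at 0.072 in KO input 2 and at 0.012 to 0.026 in the other 4 KO input libraries. The gap was 0.774 of the range. In WT input the same exon was at 0.020, 0.056 and 0.048.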

How the results depend on the processing

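No short exon passed under any alternative in the 2 genotype comparisons or their difference between TRAP and input. Between TRAP and input the number passing was 0 in the main fit and 1 with PSI held between 0.05 and 0.95, with untransformed PSI and with 1 more library per group required (Myl6 each time). It ran from 0 to 2 when each library was left out, with Myl6 without KO TRAP 1, and Camta1 and Cyb5 without WT TRAP 1. Over all splicing events the count was 2, against 0 to 8 over the alternatives, for TRAP against input, 1 against 0 to 3 for genotype in TRAP, and 0 against 0 to 6 for the difference. With the replicate block 0 short exons passed in each of the 4 comparisons (41, 84, 50 and 41 tested), and splicing regulators passing fell from 6 to 2, with Celf2, Celf4, Celf6 and Nova1 lost. The block also ended the call of Dnm1 (0.152), of 2 of 3 astrocyte and both GABA and glycine neuron markers, and of none in the serotonin-neuron, oligodendrocyte and glutamatergic lists. Without KO TRAP 1 and WT input 5 it was 4, without Celf2 and Nova1. Leaving out each library gave 4 to 7 regulators. KO and WT share only a number: residuals correlated at −0.0383 to 0.0997 in TRAP (3 of 5 closest to their own) and at 0.0501 and 0.0971 in input. Celf6 was lost without WT input 1 or WT input 2/3 (adjusted p 0.0945 and 0.0689 in edgeR), and Nova1 without WT input 2/3 (0.0556). The log2 fold change of Srrm4 turned to −0.12 with the replicate block, −0.017 in DESeq2 and −0.086 without WT input 2/3, −0.061 without KO TRAP 2 and up to 0.096 in the other libraries left out. The cause of these shifts was not tested. Leaving out KO TRAP 1 with WT input 5, the rule on 0.05 of PSI and the range of 0.1 to 0.9 were chosen after seeing the data. Read depth behind a PSI is unknown, which limits exons near an end of the scale as well as exons of intermediate PSI.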
